A study of Mus musculus with 2 samples.

Results

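The semaphorins, plexins and neuropilins are a family of guidance ligands and their receptors. The 31 members described here, 20 semaphorins, 9 plexins and 2 neuropilins, were taken from a list of gene symbols and matched to the gene identifiers of the deposited files through GENCODE, and all 31 were found among 43346 Ensembl identifiers, of which 21474 were protein-coding genes. The libraries were made from RNA over 200 bases of hindbrain taken from mouse embryos of strain B6NCrl at embryonic day 16.5, extracted as total RNA. The study has a single group of 2 biological replicates, each made from hindbrains of male and female embryos pooled together, with 37 embryos in the pool of replicate 2 and a number not given in the sources used here for replicate 1. No treatment or engineered allele is named for either pool, and each pool gave 1 library from 10 ng of RNA.

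Semaphorins are secreted or membrane-bound proteins that steer growing axons and migrating neurons, mostly by repulsion. Plexins are their signalling receptors, which act on small GTPases and, through them, on the cytoskeleton, and most class 3 semaphorins need a neuropilin as the ligand-binding co-receptor beside a class A plexin. In the hindbrain and cerebellum the family is known for roles in the migration of granule cells and pontine neurons, in motor axon exit and in the growth of blood vessels.

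The libraries held 42467811 expected counts in replicate 1 and 42017008 in replicate 2, of which the members had 76537 and 63784. Single members had between 62 and 7941 counts in replicate 1 and between 59 and 6239 in replicate 2. With 1 group of 2 libraries, the smallest p that a permutation can give is 0.5, and differences are therefore judged, with no p, by the deposited intervals of each value and by the spread between the 2 libraries. Levels are in TPM, a relative abundance corrected for transcript length. Markers of neurons (3318 TPM summed over 6 genes in replicate 1, 3507 TPM in replicate 2), of cerebellar granule cells (114.9 and 122.3 TPM, 5 genes) and of Purkinje cells (454.3 and 508.4 TPM, 5 genes) were present in both pools. Of the 5 Purkinje cell markers only 4 reached 1 TPM, and a single gene gave most of their sum. The pools differed in markers of other tissues. Summed TPM of 8 skeletal muscle and cartilage markers was 245.6 in replicate 1 and 23.55 in replicate 2. For 6 meningeal and fibroblast markers it was 754.2 and 413.4, and for 6 radial glia and astrocyte markers 2481 and 3211. The sum of 9 forebrain markers was 57.53 and 33.96, with 7 of the 9 over 2-fold higher in replicate 1 and Emx1 among those at 0 in replicate 2. Only 2 of these 9 reached 1 TPM in both libraries. They gave most of the forebrain sum in each pool and did not differ by 2-fold.

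Most of the family was expressed. Of the 31 members, 29 reached 1 TPM in both libraries, the level called detected here, against 63.5% of protein-coding genes. The member median was 13.59 TPM, against 5.82 TPM for all protein-coding genes and 19.5 TPM for those detected. Plxnb2, a class B plexin that binds class 4 semaphorins, had the highest gene level, at 84.97 TPM in replicate 1 and 69.61 TPM in replicate 2. The members under 1 TPM were Sema3g, a secreted semaphorin known from endothelial cells, at 0.56 and 0.52 TPM, and Plxnb3, a receptor of Sema5a, at 0.99 and 0.75 TPM. In bulk tissue, few cells with much RNA of a gene and many cells with little cannot be told apart. When the members were ordered by mean TPM, 12 of the 30 neighbouring pairs had overlapping intervals in both libraries, 12 in 1 library only, and 6 in neither, so much of the middle of the order is not resolved.

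**Figure D1:**
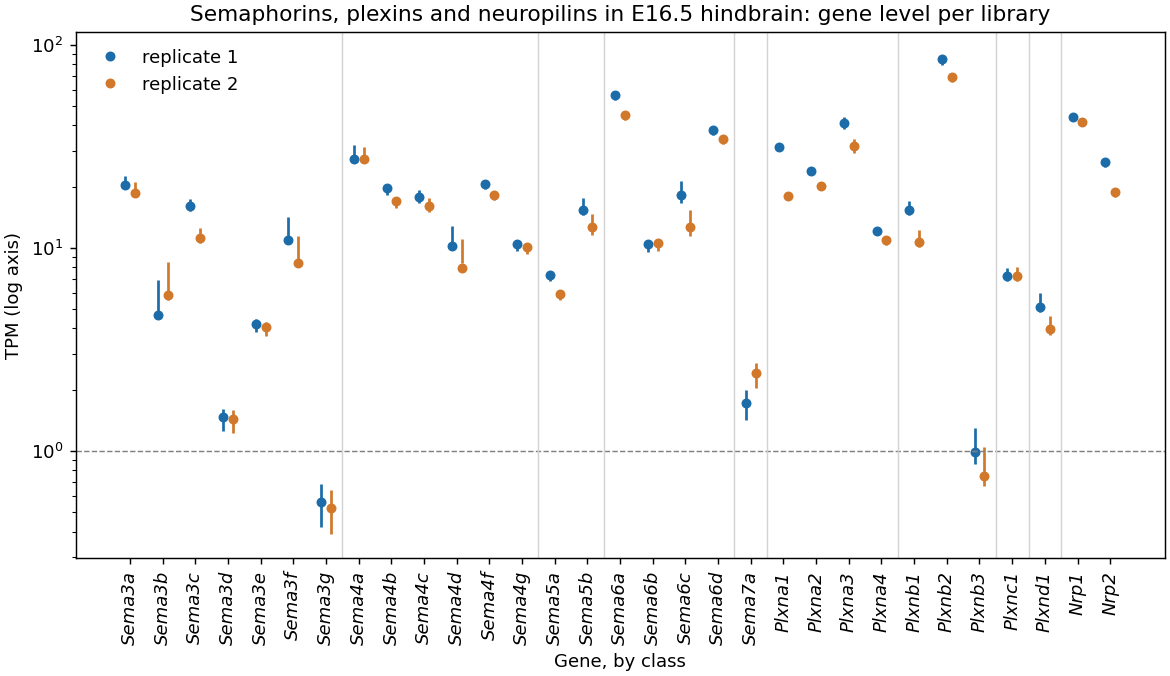
Gene level of each member in TPM on a log axis, by class, in replicate 1 (blue) and replicate 2 (orange), with vertical lines for the deposited interval of each value and a dashed line at 1 TPM. Plxnb2 is highest in both libraries, and only Sema3g and Plxnb3 lie under the dashed line in both.

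The secreted class 3 semaphorins were led by Sema3a, the classical repellent of sensory and motor axons, at 20.30 TPM in replicate 1 and 18.51 TPM in replicate 2. It made up 34.9% and 37.09% of the class. Sema3c, which can attract as well as repel axons and acts in outflow tract development, had 16.02 and 11.17 TPM. Its interval lay under that of Sema3a in both libraries, with a log2 ratio of Sema3c over Sema3a of -0.54 ± 0.27 (SD, n = 2). Sema3f, the main ligand of Nrp2, had 10.94 and 8.37 TPM. Sema3a was higher than Sema3f in both libraries, at 2.03-fold. Sema3b, another neuropilin ligand and a known tumour suppressor gene, had 4.68 and 5.86 TPM, with the value of replicate 1 outside its own deposited interval of 4.885 to 6.96 TPM. Sema3e, which binds Plxnd1 without a neuropilin, had 4.21 and 4.05 TPM, and Sema3d, known from axon guidance in zebrafish, had 1.46 and 1.43 TPM. Among the detected class 3 genes the level thus spanned more than 10-fold from Sema3a to Sema3d, and neither of these had separate intervals between the pools.

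The membrane-bound class 4 semaphorins were expressed more evenly. All 6 were detected, and their summed level was 105.7 TPM in replicate 1 and 96.66 TPM in replicate 2. Sema4a, known from the immune system and the retina, was highest at 27.22 and 27.43 TPM. Sema4f, found at glutamatergic synapses, had 20.50 and 18.19 TPM. Sema4b, which binds the postsynaptic scaffold protein PSD-95, had 19.60 and 17.02 TPM. Sema4c, a Plxnb2 ligand with a role in cerebellar granule cell precursors, had 17.75 and 15.98 TPM. These 4 genes lay above the remaining members of the class in both libraries. Sema4g, the other Plxnb2 ligand known from cerebellar development, had 10.47 and 10.06 TPM. Sema4d, the ligand of Plxnb1 and Cd72, had 10.20 and 7.98 TPM, both values just outside their deposited intervals of 10.43 to 12.77 and 8.365 to 11 TPM.

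Class 5 semaphorins carry thrombospondin repeats beside the semaphorin domain. Sema5b had 15.39 and 12.69 TPM and Sema5a 7.36 and 5.93 TPM, a log2 ratio of Sema5a over Sema5b of -1.08 ± 0.02 (SD, n = 2) with separate intervals in both libraries. Of the Sema5b level, however, 29.04% and 39.56% was assigned to transcripts that are not protein-coding, and from coding transcripts alone the log2 ratio was -0.47 ± 0.14.

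The transmembrane class 6 semaphorins had the highest summed level of any semaphorin class, at 122.6 TPM in replicate 1 and 102.4 TPM in replicate 2. From coding transcripts alone the order turned in both libraries, with 89.57 and 72.72 TPM for class 6 and 93.16 and 80.99 TPM for class 4. These classes were not compared with each other by intervals, so neither order is resolved. Sema6a, which acts with Plxna2 in granule cell migration and in boundary caps that hold motor neurons in the spinal cord, was the highest semaphorin at 56.19 and 44.83 TPM. Sema6d, a Plxna1 ligand, followed at 37.84 and 34.39 TPM. Both lay above every other semaphorin in each library. Sema6c had 18.15 and 12.61 TPM and Sema6b 10.44 and 10.54 TPM. The level of Sema6a was 4.79-fold that of Sema6b, and that of Sema6d 2.38-fold that of Sema6c, or 4.30-fold from coding transcripts alone. Sema7a, the lone class 7 semaphorin, which is anchored to the membrane by a lipid and promotes axon growth through integrins, was low at 1.72 and 2.41 TPM.

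Neuropilins bind class 3 semaphorins and also members of the VEGF family. Nrp1 (ENSMUSG00000025810.8), the Sema3a co-receptor, had 44.00 TPM in replicate 1 and 41.76 TPM in replicate 2, and Nrp2 (ENSMUSG00000025969.11), the Sema3f co-receptor, had 26.41 and 18.87 TPM. Nrp1 was higher in both libraries, with a log2 ratio over Nrp2 of 0.94 ± 0.29 (SD, n = 2). Each co-receptor stood above its best-known ligand: the log2 ratio of Sema3a over Nrp1 was -1.14 ± 0.04 and that of Sema3f over Nrp2 was -1.22 ± 0.07, with separate intervals in both libraries. Nrp1 is represented by 1 transcript in the files, and Nrp2 by 7, of which 6 are coding.

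Nrp2 RNA was split almost evenly between forms with different intracellular ends, 1 of which resembles the end of Nrp1, the part of the receptor that binds the adaptor protein Gipc1. The sequences below are the last 36 coding bases, stop codon included, of Nrp1 and of both Nrp2 ends, read from the GENCODE M21 coding exons on GRCm38, and are shown because they are what sets the forms apart. Capitals mark the last 12 bases, the final 3 codons and the stop.
Nrp1 (chromosome 8, plus strand, coding sequence ending at 128502811): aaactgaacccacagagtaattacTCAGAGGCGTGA
Nrp2 end shared with Nrp1 (chromosome 1, plus strand, ending at 62815634): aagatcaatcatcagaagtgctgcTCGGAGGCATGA
Nrp2 other end (chromosome 1, plus strand, ending at 62795986): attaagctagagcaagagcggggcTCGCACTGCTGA
Of these 36 bases, 22 are identical between Nrp1 and the Nrp2 end like it, 11 between Nrp1 and the other Nrp2 end, and 17 between both Nrp2 ends. The Nrp2 transcripts that close like Nrp1 had 12.86 TPM in replicate 1 and 9.25 TPM in replicate 2, which was 51.42% and 52.92% of the coding Nrp2 level. Those with the other end had 12.15 and 8.23 TPM, or 48.58% and 47.08%. The shares thus differed little between the pools, while the level of both forms was lower in replicate 2. The most abundant forms were Nrp2-204 of the first kind, at 10.24 and 6.99 TPM, and Nrp2-201 of the second, at 9.13 and 4.8 TPM, and their deposited intervals overlapped in both libraries.

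Class A plexins are the partners of neuropilins and the direct receptors of class 6 semaphorins. Plxna3 (chromosome X), which pairs with Nrp2 in the Sema3f receptor, was the highest of the class at 41.21 TPM in replicate 1 and 31.82 TPM in replicate 2. Plxna1, a receptor of Sema6c and Sema6d, had 31.46 and 17.99 TPM, with separate intervals between the pools. Plxna2, a Sema6a receptor, had 23.76 and 20.20 TPM, and Plxna4, which binds Sema6a and Sema6b and works with Nrp1, had 12.13 and 10.88 TPM. At gene level Plxna1 was below Plxna3, with a log2 ratio of -0.61 ± 0.31 (SD, n = 2). With protein-coding transcripts alone the direction turned, to 0.18 ± 0.40, and was not the same in both libraries (0.46 and -0.10). Plxna2 was 1.91-fold above Plxna4.

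Class B plexins are receptors of class 4 semaphorins that act through exchange factors of small GTPases. Plxnb2 held 83.89% and 85.96% of the class B level. Plxnb1, the Sema4d receptor, had 15.33 and 10.62 TPM, and was 6.03-fold below Plxnb2 and 14.8-fold above Plxnb3. From coding transcripts alone it was 3.38-fold below Plxnb2. Plxnc1, the receptor of Sema7a, had 7.24 and 7.28 TPM, and Plxnd1, the vascular receptor of Sema3e, had 5.13 and 3.96 TPM. Among the receptors these last ones, with Plxnb3, were the lowest in both libraries.

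A large part of the Plxnb2 level was assigned to a short transcript. Plxnb2 (ENSMUSG00000036606.12, chromosome 15, 89155549 to 89180788, minus strand) is represented by 6 transcripts. The full-length coding form Plxnb2-202 had 45.16 TPM in replicate 1 and 31.53 TPM in replicate 2, and the processed transcript Plxnb2-205, which has no coding frame and lies at the 3′ end of the gene (89155549 to 89156572), had 33.12 and 30.63 TPM. Since Plxnb2-205 is only 841 bases long, few reads give it a high TPM: it took 7.77% and 9.57% of the gene's expected counts but 38.98% and 44.00% of its TPM. Reads from exons common to both were divided by the authors' model, so this split is uncertain. Counting coding transcripts alone, Plxnb2 had 45.94 TPM in replicate 1 and 33.76 TPM in replicate 2, against 44.00 and 41.76 TPM for Nrp1, so Plxnb2 was higher in replicate 1 and Nrp1 in replicate 2. By the mean of both libraries Nrp1 was then the highest member at 42.88 TPM, followed by Plxnb2 at 39.85, Sema6a at 34.69 and Sema6d at 29.18 TPM.

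By the mean of both libraries, a protein-coding transcript was nonetheless the leading form of all 29 detected members. In replicate 2 alone it led in 28, since Sema4g was led there by Sema4g-202, annotated as a target of nonsense-mediated decay, at 3.77 TPM. The coding form Sema4g-203 had 3.62 TPM in that library with an overlapping interval, so this lead is not resolved. In 18 members, counting Sema3g at under 1 TPM, 90% or more of the TPM was coding in both libraries. No share over all protein-coding genes stands beside these counts, which describe the members alone. The largest non-coding shares among detected members in replicate 1 were those of Sema6c, with 59.28% of TPM in replicate 1 and 50.83% in replicate 2, Plxnb2, with 45.93% and 51.50%, and Plxna3, with 44.65% and 39.41%. In expected counts the same shares were 40.91% and 29.26% for Sema6c, 8.82% and 10.76% for Plxnb2, and 9.99% and 7.01% for Plxna3. For Plxnb2 and Plxna3 the non-coding forms thus held a much smaller part of the reads than of the TPM, whereas for Sema6c they held a large part of both. The mean of Sema6c was 15.38 TPM at gene level and 6.80 TPM in coding transcripts.

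**Figure D2:**
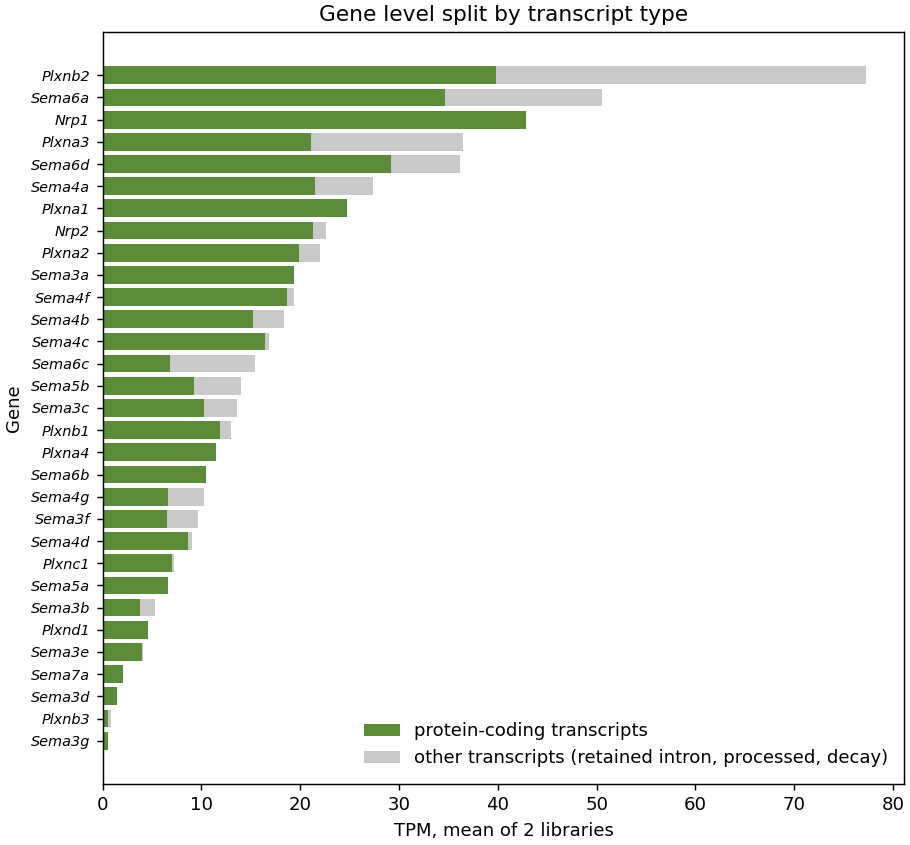
Mean TPM of 2 libraries per member, ordered by gene level and split into protein-coding transcripts (green) and all other annotated transcripts (grey). Plxnb2 has the longest bar, at 77.29 TPM, and Nrp1 the longest green part, at 42.88 TPM.

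Set against their receptors, the ligand classes differed in balance. Of 12 ratios between summed TPM of ligands, co-receptors and receptors, 9 were called, which means that the summed lower bounds of one side exceeded the summed upper bounds of the other in the same direction in both libraries. In 5 of these the first-named side was higher and in 4 it was lower. The class 3 semaphorins, at 58.17 TPM in replicate 1 and 49.91 TPM in replicate 2, did not separate from the neuropilins at 70.41 and 60.63 TPM, with a log2 ratio of -0.28 ± 0.004 (SD, n = 2). They were below the class A plexins, at 108.6 and 80.89 TPM, by a log2 ratio of -0.80 ± 0.14. Neuropilins were also below class A plexins, with a log2 ratio of -0.52 ± 0.15. Of the 3 components of the class 3 signal, the plexins thus had the highest summed level in both libraries. From coding transcripts the log2 ratio of neuropilins over class A plexins was -0.26 ± 0.13. As a single gene, Nrp1 at 44.00 and 41.76 TPM stood above each class A plexin, though its interval overlapped that of Plxna3 in replicate 1.

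Class 4 semaphorins and class B plexins did not separate at gene level, with a log2 ratio of 0.16 ± 0.14. Without the short Plxnb2 form and other non-coding transcripts, the class B sum was 60.49 and 44.08 TPM against 93.16 and 80.99 TPM for class 4, a log2 ratio of 0.75 ± 0.18. The named ligand and receptor pairs of this arm showed a wide range. Plxnb2 was 4.57-fold above its ligand Sema4c and 7.49-fold above its ligand Sema4g, with separate intervals in both libraries. From coding transcripts the same folds were 2.39 and 5.99. The Sema4g fold leaves out Sema4g-202, which is annotated as a decay target though its frame has 837 codons, as in Sema4g-201. Sema4d and Plxnb1 had overlapping intervals in replicate 2, at a log2 ratio of -0.50 ± 0.12.

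Class 6 semaphorins slightly exceeded class A plexins, with a log2 ratio of 0.26 ± 0.12, which shrank to 0.08 ± 0.07 in coding transcripts. Sema6a and Sema6b together stood above Plxna2 and Plxna4 by 0.86 ± 0.04 on the log2 scale. Sema6c and Sema6d stood above Plxna1 by 1.11 ± 0.39, with 0.83 in replicate 1 and 1.39 in replicate 2. As single genes, Sema6a was 2.29-fold above Plxna2 and Sema6d 1.52-fold above Plxna1. From coding transcripts Sema6a was 1.73-fold above Plxna2, and Sema6d over Plxna1 had log2 ratios of -0.01 in replicate 1 and 0.59 in replicate 2, so the direction was not the same in both.

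The remaining arms ranged from even to very unequal. Class 5 semaphorins had 23.9-fold the level of Plxnb3, and Sema5a alone 7.67-fold, but class 5 semaphorins were 2.92-fold below the sum of Plxna1 and Plxna3, which also bind Sema5a and Sema5b. Sema7a was 3.57-fold below its receptor Plxnc1. Sema3e and Plxnd1 could not be separated, at a log2 ratio of -0.13 ± 0.22 that was -0.28 in replicate 1 and 0.03 in replicate 2. Over the whole family, semaphorins summed to 311.0 and 270.0 TPM and plexins to 222.2 and 173.1 TPM, a log2 ratio of 0.56 ± 0.11. Of the 20 single pairs compared, 18 had separate intervals in both libraries, and the exceptions were Sema3e with Plxnd1 and Sema4d with Plxnb1. RNA ratios say nothing of how much protein reached the cell surface.

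**Figure D3:**
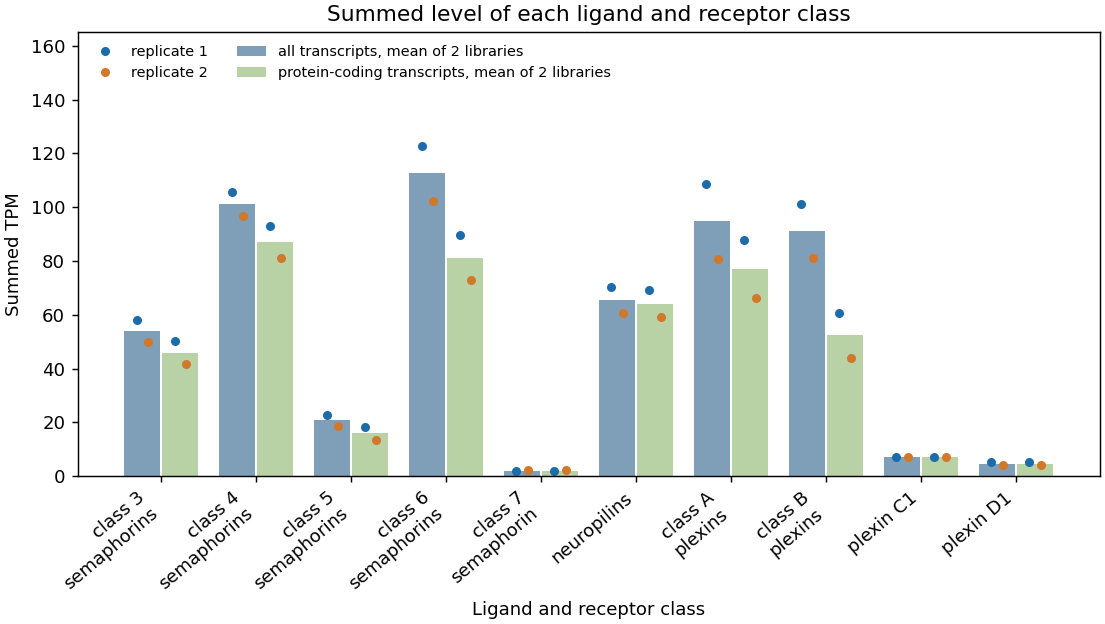
Summed TPM of each ligand and receptor class, with bars for the mean of 2 libraries from all transcripts (blue) and from protein-coding transcripts (green) and points for each library. Class 6 semaphorins have the highest bar from all transcripts and class 4 semaphorins the highest from coding transcripts, and the class B plexin bar drops most when non-coding transcripts are left out, from 91.13 to 52.29 TPM.

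Several semaphorin genes had coding TPM assigned to transcripts of more than 1 annotated start. Use of a start was not measured directly. Start sites within 500 bases of each other were joined, and levels are those of coding transcripts. Sema6d (chromosome 2, 124089969 to 124667770) had a distal start at 124089969, with 16.59 TPM in replicate 1 and 13.75 TPM in replicate 2, and a second group of 6 transcripts 520604 bases downstream, with 14.75 and 13.26 TPM. The distal start took 52.94% and 50.91% of the coding level, so the assigned level was split about equally between both starts in each pool. The distal form Sema6d-208 encodes 998 codons, and the largest downstream form, Sema6d-206, encodes 1073 and had 7.26 and 6.66 TPM. Sema4c had its upstream start at 61.25% and 66.56% and the downstream one, 792 bases away, at 38.75% and 33.44%. Sema4a divided its level mainly between the starts at 88461182, with 40.32% and 44.55%, and 88459101 on chromosome 3, with 57.25% and 42.76%. The leading start was not the same in both pools for Sema4a, for Sema3b and for Sema4g. The upstream Sema4g start held 71.87% in replicate 1 and 42.45% in replicate 2. That change rests on leaving out Sema4g-202, not counted as coding, which starts near the upstream site and had 3.61 and 3.77 TPM. With Sema4g-202 the upstream start led in both pools. The deposited intervals of the downstream form, Sema4g-203, ran from close to 0 to 3.293 TPM in replicate 1 and from 1.545 to 4.982 TPM in replicate 2, so they overlap. Forms of the competing starts also had overlapping intervals in each pool, such as Sema4a-214 with Sema4a-213 and Sema3b-202 with Sema3b-205.

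**Figure D4:**
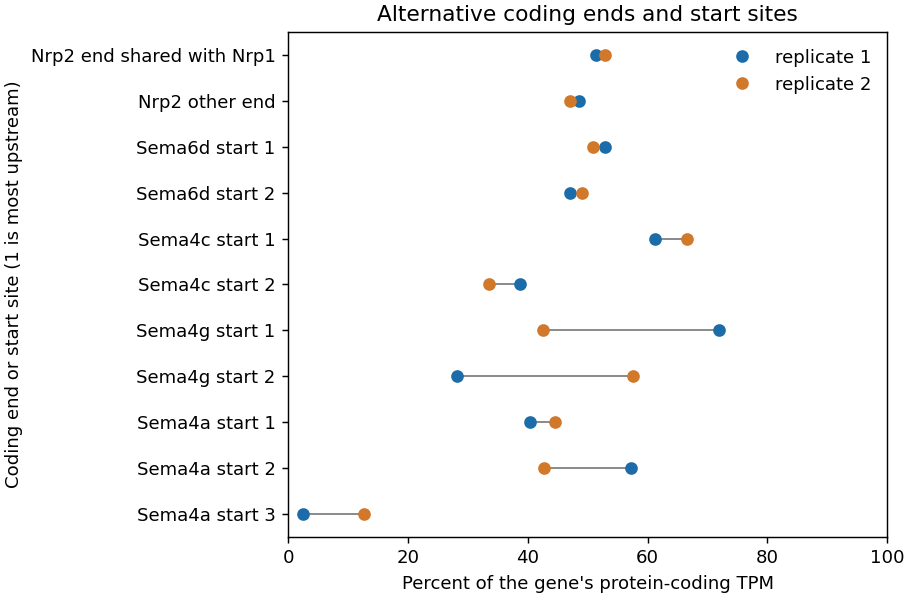
Percent of each gene's protein-coding TPM held by the 2 Nrp2 coding ends and by the start sites of Sema6d, Sema4c, Sema4g and Sema4a, in replicate 1 (blue) and replicate 2 (orange). The Nrp2 and Sema6d points of both libraries lie close to 50%, and the Sema4g points cross between libraries.

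The promoters of these starts differed in their content of CpG dinucleotides, which many broadly used promoters are rich in. The 300-base windows, from 250 bases before to 50 bases after each RefSeq start on GRCm38.p6, are shown for both Sema4c starts, for the distal Sema6d start and for the upstream Sema4a start because these starts carried the levels just given. They read 5′ to 3′ on the gene's strand, and capitals mark CG.
Sema4c upstream, chr1:36558332-36558631, minus strand: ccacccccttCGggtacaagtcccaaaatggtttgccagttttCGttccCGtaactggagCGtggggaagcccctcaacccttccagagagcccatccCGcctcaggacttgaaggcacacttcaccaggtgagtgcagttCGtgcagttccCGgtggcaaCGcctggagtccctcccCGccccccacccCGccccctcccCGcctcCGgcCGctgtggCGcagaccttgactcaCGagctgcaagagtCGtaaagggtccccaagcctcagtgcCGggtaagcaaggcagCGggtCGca
Sema4c downstream, chr1:36557508-36557807, minus strand: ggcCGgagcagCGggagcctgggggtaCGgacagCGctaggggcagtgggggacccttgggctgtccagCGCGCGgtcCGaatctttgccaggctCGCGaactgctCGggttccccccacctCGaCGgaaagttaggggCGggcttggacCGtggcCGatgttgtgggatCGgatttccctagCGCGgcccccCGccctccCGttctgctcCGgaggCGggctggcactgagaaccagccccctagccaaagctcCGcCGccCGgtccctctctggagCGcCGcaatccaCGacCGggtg
Sema6d distal, chr2:124089719-124090018, plus strand: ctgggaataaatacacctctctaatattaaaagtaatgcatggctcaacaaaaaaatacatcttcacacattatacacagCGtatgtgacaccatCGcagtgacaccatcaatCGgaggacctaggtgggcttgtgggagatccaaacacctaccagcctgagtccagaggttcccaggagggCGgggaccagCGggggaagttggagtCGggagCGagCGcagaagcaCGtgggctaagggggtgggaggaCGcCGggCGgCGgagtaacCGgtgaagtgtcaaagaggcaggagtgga
Sema4a upstream, chr3:88461133-88461432, minus strand: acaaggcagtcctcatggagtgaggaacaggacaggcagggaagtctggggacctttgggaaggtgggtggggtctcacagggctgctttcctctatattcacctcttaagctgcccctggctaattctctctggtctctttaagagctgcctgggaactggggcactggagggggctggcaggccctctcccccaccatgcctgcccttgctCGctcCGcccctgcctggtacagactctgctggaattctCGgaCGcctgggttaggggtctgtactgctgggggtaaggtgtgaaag
The Sema4c windows hold 19 and 30 CpG, the distal Sema6d window 14 and the Sema4a window 4. RefSeq promoters were found for 26 of the 31 members, with 37 windows in all, whose median was 15 CpG against 7 over all 32851 windows. The letters TATAAA, searched on both strands, were in 0 of the 37 windows and in 13.62% of all windows.

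Like nearly all protein-coding genes, the members varied between the pools by less than 2-fold. By the log2 ratio of scaled counts (TMM in edgeR), 0 of 29 members with a mean of 1 TPM or more passed 2-fold, against 1.51% of protein-coding genes. With DESeq2 size factors, spike-in scaling or TPM the count was 0 as well. At a 1.5-fold limit 1 member, Plxna1, passed with TMM. The share of protein-coding genes past 1.5-fold was not computed, so this count says nothing particular of the members. The central 95% of protein-coding genes ran from -0.649 to 0.449 on the log2 scale. With spike-in scaling the log2 ratio of Plxna1 was -0.31, under that 1.5-fold limit, and that of Sema7a was 0.98, over it. Deposited TPM intervals were separate between the libraries for 17 of 29 members, against 31.4% of protein-coding genes. Separate and higher in replicate 1 were 16 of all 29 members, against 22.3% of protein-coding genes (3084 of 13843). Those 3084 were also most of the 4340 protein-coding genes with separate intervals. The other separate member, Sema7a, was higher in replicate 2. The median log2 ratio of replicate 2 over replicate 1 was -0.19 for the members and -0.01 for protein-coding genes. Long genes in general leaned the same way: among 3484 protein-coding genes with lengths in the middle range of the members' lengths, the median was -0.12. Of these genes, 73.62% were higher in replicate 1, against 75.86% of members. Separate intervals were found for 1535 of the 3484, of which 1396 were higher in replicate 1. The shares of 31.4% and 22.3% above cover protein-coding genes of all lengths. Scaled to the spike-ins, which shifted all genes by 0.45 on the log2 scale, only 3 of 29 members were higher in replicate 1. The direction of a common shift thus depends on the scaling. The median log2 ratio was then 0.265 for the members and 0.435 for protein-coding genes, so the members kept the lower median.

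By the same scaled counts, Plxna1 was 1.69-fold higher in replicate 1 with a counting interval of 1.625 to 1.756 (exact, 95%, counting error only), and 1.89% of protein-coding genes lay further in that direction. Sema3c at -0.52, Plxnb1 at -0.46, Sema6c at -0.43 and Nrp2 at -0.40 followed on the log2 scale. Nrp1 did not move with Nrp2: its ratio was -0.03, with a counting interval that includes no change (0.949 to 1.017), although its deposited TPM intervals, 41.94 to 44.04 and 39.84 to 41.89 TPM, just missed each other. Sema7a differed in the other direction, 1.45-fold higher in replicate 2 with a counting interval of 1.16 to 1.814. Only Plxna1 and Sema7a lay outside the central 95% of protein-coding genes. The markers of muscle and cartilage, meninges and forebrain given above, and 7 of 7 motor neuron markers with sums of 139.6 and 91.80 TPM, were higher in replicate 1 too, and their part in these differences was not tested. A non-coding gene on the other strand, Gm26811, overlaps 970 exonic bases of Plxna1 at a mean of 0.36 TPM.

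**Figure D5:**
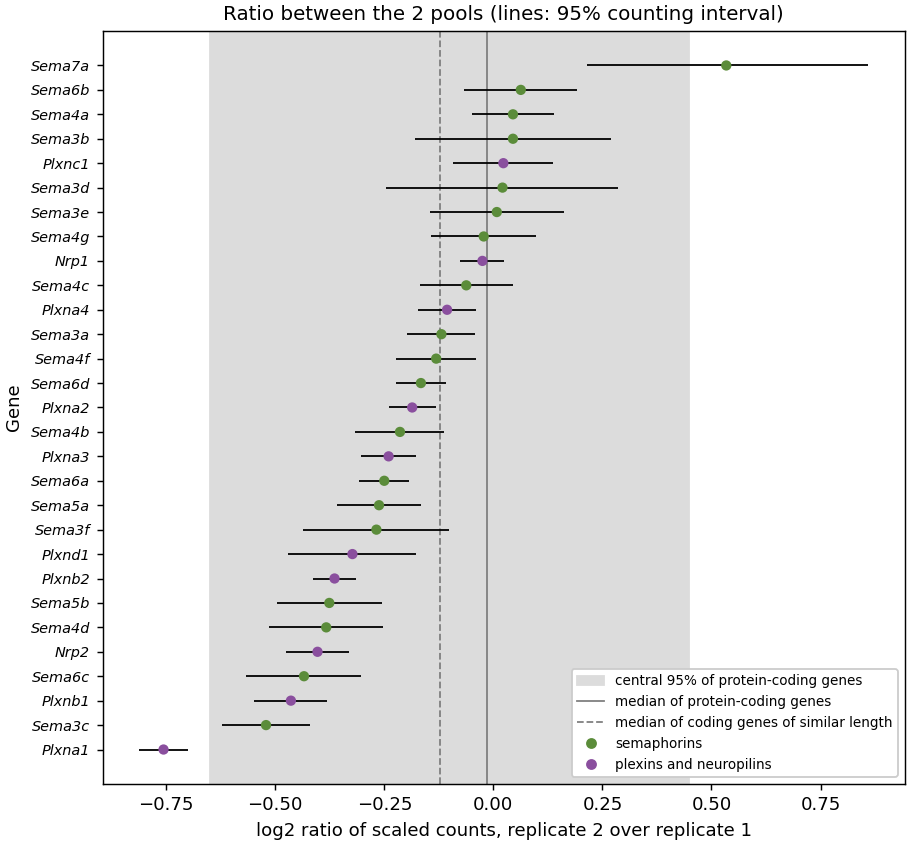
Log2 ratio of scaled counts, replicate 2 over replicate 1, for the 29 members with a mean of 1 TPM or more (green for semaphorins, purple for plexins and neuropilins), with lines for the counting interval. Grey shading is the central 95% of protein-coding genes, the solid line their median and the dashed line the median of those with lengths like the members'. Plxna1 lies left of the shading and Sema7a right of it.

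Genes that act with or after these receptors were mostly expressed: 58 of a list of 60 were detected, against 63.5% of protein-coding genes. The 20 receptor partners, with a median of 16.3 TPM, were led by L1cam, the adhesion molecule that joins Nrp1 in Sema3a receptors, at 118 and 91.26 TPM, its relative Chl1 at 78.99 and 74.04 TPM and the integrin subunit Itgb1, a Sema7a receptor chain, at 80.61 and 67.34 TPM. Small GTPases and their regulators had a median of 40.19 TPM, led by Cdc42 at 817.9 and 886.9 TPM, Rac1 at 282.1 and 184.5 TPM and Rhoa at 232.3 and 232.2 TPM. Effectors on the cytoskeleton and kinases had a median of 84.32 TPM. Among them the actin-severing protein gene Cfl1 had 2371 and 2459 TPM, and the collapsin response mediators Dpysl2 and Dpysl3, which bind tubulin, had 1063 and 1150 TPM and 1042 and 1030 TPM. Each of these 3 effectors stood above every ligand and receptor of the family in both libraries. Of the competing neuropilin ligands of the VEGF family, Pgf had 8.81 and 9.67 TPM, close to Sema3f at 10.94 and 8.37 TPM. Lower levels were found for Vegfc at 3.15 and 3.01 TPM, Vegfa at 2.58 and 2.83 TPM and Vegfd at 0.35 and 0.36 TPM. Timd2, which encodes a receptor of Sema4a in immune cells, was listed at 0 in both libraries.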

How the data were processed

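RNA from 2 pools of hindbrain was analysed as 1 group, with groups and replicate numbers from the labels. Per the deposited notes, the authors quantified each library on mm10 with GENCODE M4. Which tool made the values, whether strand was used and the level of the intervals: not given in the sources used here. Per the file headers, the authors deposited an expected count per gene and transcript, TPM and FPKM, which correct for length and depth, the percent of a gene's TPM held by each transcript, and interval bounds on TPM and FPKM, treated here as scores.

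Gene and transcript names, types and coordinates were taken from GENCODE M21 (GRCm38, which is mm10), and promoter windows from RefSeq (GRCm38.p6). Of 43346 identifiers 42462 matched, and those unmatched held 0.173% and 0.171% of counts. Spike-ins (2.18% and 1.59% of counts) were left out, expected counts were rounded, and edgeR 4.0.16 under R 4.3.3 gave TMM-scaled ratios at a prior count of 0.5. The ratio step was tested on simulated data. Sums, shares and exact intervals used pandas 2.3.3 and SciPy 1.17.1 in Python 3.11.15.

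The members, pairs, pathway list and marker lists were chosen with earlier results of these data known. Named were all members, both genes of each pair, and of each pathway role up to 3 genes with the highest mean and those under 1 TPM. Emx1 and Gm26811 lie outside that rule and were picked with their values in view. Values of some genes in the marker lists enter the sums and are not reported here. The alternatives changed the detection minimum, unit, fold limit, coding transcripts, scaling (DESeq2 1.42.0, spike-ins), prior count, filters and each replicate left out. The intervals describe each library, not the spread between animals.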

Additional observations from a re-analysis of the deposited data

How the results depend on the processing

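No paired analysis was possible because there is 1 group. Counting protein-coding transcripts alone, with a 2-fold limit in both libraries, called 11 of 20 pairs and 3 of 12 sums, and the 2-fold limit with all transcripts called 12 pairs and 3 sums. Sums that then missed the limit, with log2 ratios from all and from coding transcripts, were class 3 semaphorins over class A plexins (-0.80, -0.74), neuropilins over class A plexins (-0.52, -0.26), class 6 semaphorins over class A plexins (0.258, 0.079), Sema6a and Sema6b over Plxna2 and Plxna4 (0.86, 0.52), Sema6c and Sema6d over Plxna1 (1.11, 0.59) and all semaphorins over all plexins (0.56, 0.73). The limit is stricter than the intervals by construction, and the cause of the lower values was not tested. Plxna1 over Plxna3 reversed, from -0.61 to 0.18, with coding transcripts alone. With replicate 2 alone, class 4 semaphorins over class B plexins was called at 0.255 (0.062 to 0.255 with each replicate left out), and with replicate 1 alone Sema3e over Plxnd1 was called at -0.285 (-0.285 to 0.032). A 1.5-fold limit gave 1 member between the pools instead of 0, with no share of protein-coding genes at that limit beside it. Direction and side of the limit were kept by 78 other values that summarise a comparison and by 184 for single genes and pairs. Spike-in scaling turned the direction between the pools of 21 members, none of them past 2-fold. Depth limits the lowest members, of which the lowest had 62 counts in replicate 1 and 59 in replicate 2.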

Other observations

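Several members lie near each other in the genome and differ in level. On chromosome 5, Sema3d (12383385 to 12588948), Sema3a (13125414 to 13602565) and Sema3e (14025276 to 14256689) follow each other with gaps of 536466 and 422711 bases, and Sema3c starts 3317592 bases further on. Their mean levels were 1.45 TPM for Sema3d, 19.4 TPM for Sema3a, 4.13 TPM for Sema3e and 13.6 TPM for Sema3c. On chromosome 9, Sema3b and Sema3f are 72271 bases apart, at mean levels of 5.27 and 9.65 TPM. On chromosome X, Plxnb3 and Plxna3 are 556552 bases apart, and they had the lowest receptor level at 0.87 TPM and the second highest plexin level at 36.5 TPM. Sema6a used 3 main coding forms, of 976 codons at 15.8 TPM in replicate 1 and 12.5 TPM in replicate 2, of 1031 codons at 9.54 and 9.78 TPM, and of 1048 codons at 13.4 and 6.21 TPM, so the longest was the one that differed most between the pools.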
